A study of Mus musculus with 14 samples.

Results

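*Gpr179*, which encodes an orphan receptor best known from the retina, was among the most highly counted genes in fibroblasts converted to hepatic cells, and 7 genes that lie near it on mouse chromosome 11 are described with it: *Epop*, *Cisd3*, *Lasp1*, *Mllt6*, *Arhgap23*, *Copz2* and *Mrpl45*. These 8 genes of the 28022 in the deposited count table were chosen by name, and *Gpr179* was selected on its counts, high in the converted cultures and low in fibroblasts and liver. The difference between cultures and the other tissues is therefore given as a description without a test while the comparisons among the cultures, which are not part of that selection of *Gpr179*, were tested. All 8 genes were named with earlier results of these data known, so the tests are not independent of those results. All 8 genes passed the filter on low counts.

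RNA-sequencing was carried out on 14 libraries of C57BL/6J mouse material, 2 from each of 7 conditions. Embryonic fibroblasts were the starting cells, and adult liver and fetal liver served as tissue references. Induced hepatic stem cells (iHepSCs) were made from such fibroblasts with lentiviral *Oct4* and *Hnf4α* driven by an SFFV promoter, and were cultured in 2 dimensions alone (2D-iHs) or with induced endothelial cells (2D-iHEs), and in a 3-dimensional hydrogel alone (iHLOs) or with induced endothelial cells (iHEAs). The induced endothelial cells came from the human fibroblast line HF1 with lentiviral *ETV2*, so that 2D-iHEs and iHEAs held human as well as mouse cells, while the genes counted are mouse genes. Reads were aligned to the mouse genome, and the paper describes no step to remove human reads. Counts in 2D-iHEs and iHEAs may therefore hold some human reads, which was not tested. The sources do not give the number of conversions or clones behind the iHepSCs, nor the number of mice behind each liver library, nor whether the 2 libraries of a condition came from separate cultures. The p-values below therefore measure the spread between these libraries, which may be technical. The 1 column of iHEAs without a clear replicate number is called the second iHEA library.

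GPR179 is a transmembrane protein with a long intracellular tail. In the dendrites of retinal ON bipolar cells it anchors regulators of G protein signalling (RGS proteins) close to the glutamate receptor mGluR6, encoded by *Grm6*, and the channel TRPM1, and its loss in people and mice causes a form of congenital stationary night blindness. It has no established role in the liver.

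On the GRCm38 build, in GENCODE M21, *Gpr179* (ENSMUSG00000070337.4) is a protein-coding gene on the reverse strand of chromosome 11, at chr11:97332109-97352077, with 9542 exonic bases. *Mrpl45* (chr11:97315716-97329920) runs towards it from the forward strand and ends 2188 bases short of it. *Copz2* (chr11:96849870-96861203, forward strand) lies farther down in coordinate, 471 kb away. Towards higher coordinates follow *Arhgap23* (chr11:97415533-97502402, forward) at a gap of 63.5 kb, *Epop* (chr11:97627389-97629702, reverse) at 275 kb, *Mllt6* (chr11:97663414-97685463, forward) at 311 kb, *Cisd3* (chr11:97685826-97688621, forward) at 334 kb and *Lasp1* (chr11:97799000-97838764, forward) at 447 kb. No exon of another gene lies inside the bodies of *Gpr179*, *Epop*, *Cisd3* or *Lasp1*. The reverse-strand gene *4933428G20Rik* overlaps *Arhgap23*, *Gm11594* lies partly inside *Mrpl45*, and the microRNA genes *Mir152* and *Mir6927* lie inside *Copz2* and *Mllt6*. Whether the counting used strand is not given in the sources used here, so counts of these 4 host genes may hold reads of the genes inside them.

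RefSeq promoter sequences (GRCm38.p6) were matched for 6 of the 8 genes. Shown first are the bases before the start of *Gpr179*, the gene with the largest difference, then those of its nearest neighbour *Mrpl45*, and those of *Mllt6*, whose stretch had the most CG dinucleotides. Each holds 250 bases, 5′ to 3′ on the gene's own strand, at chr11:97352357-97352606 (reverse strand), chr11:97315466-97315715 (forward) and chr11:97663162-97663411 (forward), and capitals mark CG dinucleotides.
Gpr179: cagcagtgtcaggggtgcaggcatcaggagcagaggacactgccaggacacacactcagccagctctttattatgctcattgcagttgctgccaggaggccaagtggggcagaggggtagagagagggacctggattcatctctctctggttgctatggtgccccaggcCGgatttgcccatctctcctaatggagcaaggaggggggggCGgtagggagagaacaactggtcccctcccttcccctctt
Mrpl45: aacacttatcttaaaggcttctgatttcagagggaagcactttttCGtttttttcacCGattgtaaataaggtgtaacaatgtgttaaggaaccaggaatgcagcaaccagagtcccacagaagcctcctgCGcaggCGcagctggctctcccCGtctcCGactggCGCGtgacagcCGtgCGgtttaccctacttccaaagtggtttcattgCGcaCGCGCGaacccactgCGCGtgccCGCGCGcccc
Mllt6: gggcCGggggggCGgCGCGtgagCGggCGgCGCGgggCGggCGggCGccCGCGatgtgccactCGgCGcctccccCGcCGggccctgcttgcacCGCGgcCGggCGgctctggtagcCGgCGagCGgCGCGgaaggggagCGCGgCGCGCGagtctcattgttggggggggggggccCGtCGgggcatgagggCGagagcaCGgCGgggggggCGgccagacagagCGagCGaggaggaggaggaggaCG
The *Gpr179* stretch held 2 CG dinucleotides, the *Mrpl45* stretch 19 and the *Mllt6* stretch 40. Over all 32851 promoters in the table the median was 6, with quartiles of 2 and 16, so *Gpr179* stood at the lower quartile and both neighbours above the upper one. *Copz2* had 18 and *Lasp1* 24. *Cisd3*, which has 2 starts in the table, had 6 at the first, the median of all promoters, and 27 at the second. In GENCODE M21 the stretch before the first *Cisd3* start holds an exon of *Mllt6*, and those before the second *Cisd3* start and the *Copz2* start hold exons of these genes themselves, so they are not purely upstream sequence. The octamer ATGCAAAT, which OCT4 binds, the HNF4 sequence CAAAGTCCA and the TATA box TATAAA were searched on both strands over 300 bases, 250 before and 50 after the start. None of the 3 sequences contains another. None was found in the 7 promoters of the 6 matched genes. In all promoters of the table the octamer was present in 1.74%, the HNF4 sequence in 0.475% and the TATA box in 13.6%.

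The libraries held between 20851489 and 35143325 counted reads. Marker lists set the conditions apart. Summed fibroblast markers (*Col1a1*, *Col1a2*, *Thy1*, *Pdgfra*, *Dcn*) reached 22280 to 23486 counts per 1000000 counted reads (CPM, scaled by TMM factors) in fibroblasts and 2.69 to 12.5 in the 8 cultures. Summed hepatocyte markers (*Alb*, *Apoa1*, *Ttr*, *Apob*, *Cyp3a11*, *Cps1*) reached 535284 to 567183 CPM in adult liver. In the cultures they differed by dimension, at 642 to 702 CPM in 2D and 1025 to 1091 in 3D, with *Cyp3a11* at 0 in 2D-iHEs and iHEAs. Summed mouse endothelial markers (*Pecam1*, *Cdh5*, *Tie1*, *Vwf*, *Kdr*) were at 478 to 483 CPM in 2D-iHs, 408 to 430 in 2D-iHEs, 1115 to 1247 in iHLOs and 792 to 870 in iHEAs, so that they were higher in 3D and lower with co-culture, with *Kdr* at 0 in iHEAs. Summed cholangiocyte markers (*Krt19*, *Krt7*, *Epcam*, *Sox9*) were at 1243 to 1335, 1050 to 1193, 1189 to 1258 and 1477 to 1478 CPM in the same order. The part of these markers in the comparisons among the cultures was not tested. The TMM factors of both adult liver libraries, 0.445 and 0.451, were far below the 1.09 to 1.22 of the other 12, and the median log2 ratio of all genes, cultures to adult liver, was 0.26 with these factors and 1.55 by library size. Ratios to adult liver are therefore also given by library size where their sign changes. Sex-linked genes, named after their values were seen, also set the cultures apart from fibroblasts. Fibroblasts held 93134 and 73323 counts of *Xist*, which is expressed from the inactive X chromosome, and 200 and 152 of the Y-linked *Ddx3y*, while the 8 cultures held 34 to 165 counts of *Xist* and 0 of *Ddx3y*. Adult liver held 14646 and 16368 counts of *Xist* and 0 of *Ddx3y*, although the methods for quantitative PCR give male mice as the source of adult liver; whether the sequenced livers came from those mice is not stated. Fetal liver held 18478 and 26694 counts of *Xist* and 885 and 151 of *Ddx3y*. The part of this difference in the contrast of cultures with fibroblasts was not tested. In bulk libraries, fewer cells of a type and less RNA per cell cannot be told apart.

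*Gpr179* was high in every culture and nearly absent elsewhere. Its counts were 108 and 110 in fibroblasts, 6 and 11 in adult liver, and 11 and 10 in fetal liver. In the cultures they were 96639 and 85411 in 2D-iHs, 108454 and 63023 in 2D-iHEs, 68966 and 70966 in iHLOs, and 78869 and 73185 in iHEAs. No culture library came near any of the other 6, and the gene ranked between 5 and 14 among all genes by count in each culture, with 0.239 to 0.309% of the counted reads. As CPM, the level was 2510 ± 246 (SD, n = 8) in the cultures against 3.21 ± 0.432 (SD, n = 2) in fibroblasts, 783-fold higher, or 9.58 on the log2(CPM) scale with a prior count of 2. This log2 ratio ranked 44 among 13653 genes. The ratio to adult liver was 4608-fold and that to fetal liver 7753-fold, both resting on at most 11 counts per liver library. By library size the log2 ratio to adult liver was 13.18 in place of 12.04, above that to fetal liver (12.60 in place of 12.64), so the order of the 2 ratios depended on the scaling.

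By condition, the order of mean CPM was 2D-iHEs (2701 ± 122), 2D-iHs (2689 ± 6.51), iHEAs (2489 ± 146), iHLOs (2160 ± 72.9), fibroblasts (3.21), adult liver (0.545) and fetal liver (0.324; each n = 2, SD). The libraries of 2D-iHEs lay on both sides of those of 2D-iHs, and the order of the livers reversed when counts were divided by library size alone. Each of the other neighbouring pairs in that order had libraries that did not overlap. Of the 29 genes above 1000 CPM in every culture, a count made after the values were seen, *Gpr179* was the 1 gene below 5 CPM in all 6 other libraries, where it reached 3.51 CPM at most. The next lowest, *Lama5*, which encodes a laminin chain, reached 193 CPM there. *Gpr179* was selected for such a pattern, so its place in this count was set by the selection.

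**Figure D1:**
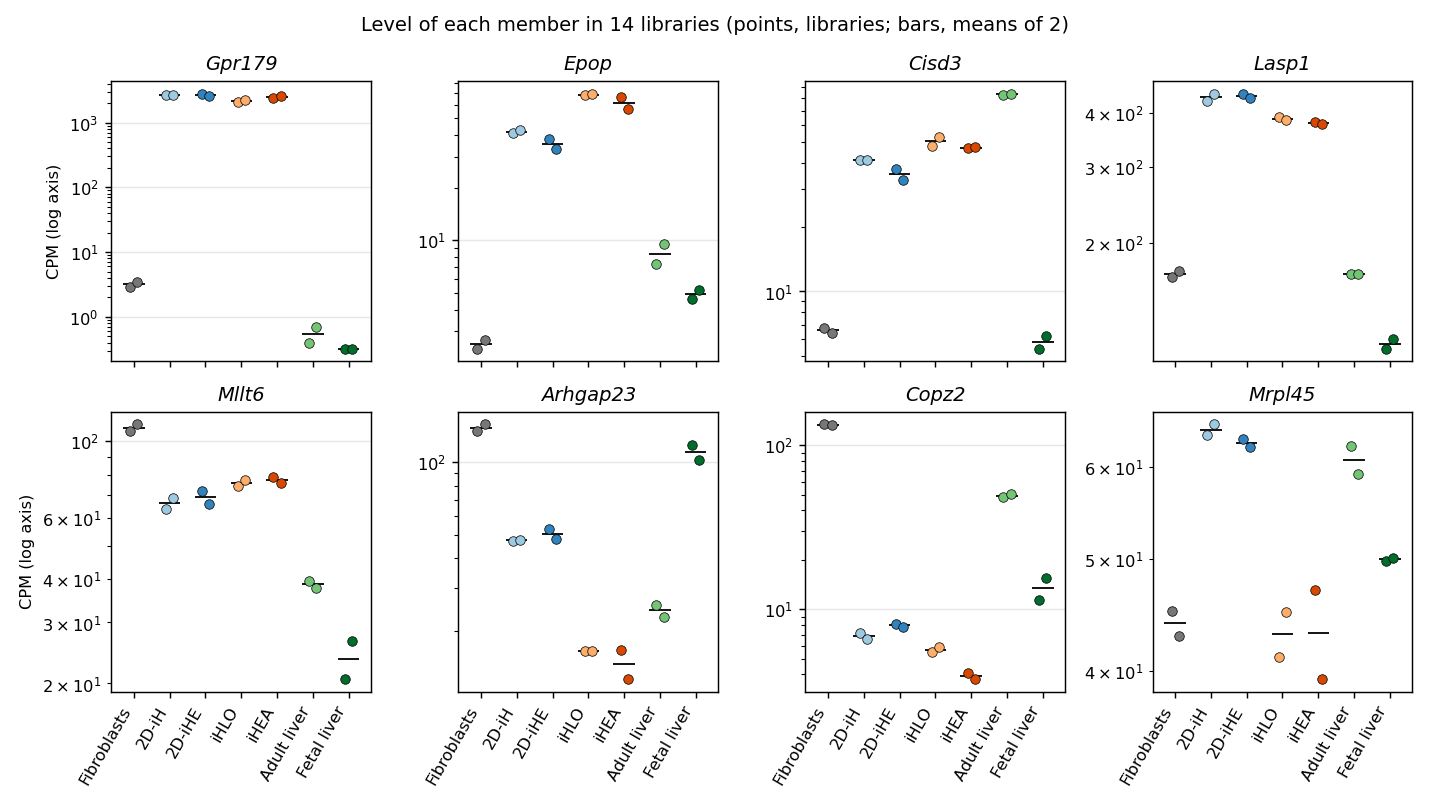
Level of each of the 8 genes in 14 libraries, as CPM scaled by TMM factors on a log axis whose range differs between panels; points are libraries and bars are means of 2. *Gpr179* sits between 2109 and 2787 CPM in all 8 cultures and at 3.51 CPM or less elsewhere, *Copz2* is lowest in the cultures, and *Mrpl45* in the cultures overlaps the fibroblasts and livers.

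Of the 8 genes, 4 were above both fibroblast libraries in every culture (*Gpr179*, *Epop*, *Cisd3*, *Lasp1*) and 3 were below both (*Mllt6*, *Arhgap23*, *Copz2*). Over the 13653 genes that passed the filter, 40.4% were above and 29.9% below in this way. Against all 6 other libraries, 3 of the 8 were above (*Gpr179*, *Epop*, *Lasp1*) and *Copz2* was below, where 15.3% and 10.2% of 14121 genes were so. These contrasts chose *Gpr179*, and nothing is read from the counts. The levels of the 8 genes are set side by side only per kilobase of exon. In fibroblasts *Copz2* led, at 60.2 ± 0.698 CPM per kb (SD, n = 2), and *Gpr179* came last at 0.336 ± 0.0453. In the cultures *Gpr179* led, at 263 ± 25.8 CPM per kb (SD, n = 8), and *Copz2* came last at 2.77 ± 0.736. Between them in the cultures stood *Lasp1* (63.2), *Cisd3* (52.2), *Epop* (22.4), *Mrpl45* (20.6), *Mllt6* (9.68) and *Arhgap23* (4.85 CPM per kb). Per kilobase, *Gpr179* ranked 107 among 27619 genes.

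Among the cultures, the 4 libraries grown in 3D (iHLOs and iHEAs) were compared with the 4 grown in 2D using edgeR's quasi-likelihood test on counts, with Benjamini-Hochberg adjustment over 13409 genes. *Epop*, *Cisd3* and *Mllt6* were higher in 3D and *Gpr179*, *Lasp1*, *Arhgap23*, *Copz2* and *Mrpl45* lower, 3 and 5 of the 8. Over all genes tested 38.7% were higher and 37.2% lower, so a call is common in this comparison. The median log2 fold change was -0.16 over the 8 genes and 0.01 over all genes tested. For each of the 8, the 3D libraries did not overlap the 2D libraries in CPM. The share of all genes without such overlap was not counted, so nothing is read from this.

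*Gpr179* was at 2615 to 2787 CPM in 2D and at 2109 to 2592 CPM in 3D. Its log2 fold change in 3D against 2D was -0.17 ± 0.07 (SE; edgeR adjusted p = 0.0303), 1.13-fold lower, which was small beside its distance from the other tissues. The call was lost when 1 library was left out, either of 2D-iHEs (log2 fold change -0.17 and -0.18; edgeR adjusted p = 0.0678 and 0.0523) or either of iHLOs (-0.13 and -0.15; edgeR adjusted p = 0.0939 and 0.0874). In the matched pairs, *Gpr179* was lower in iHLOs than in 2D-iHs by -0.27 ± 0.06 on the log2 scale (edgeR adjusted p = 0.000691). In iHEAs against 2D-iHEs the difference was -0.08 ± 0.06 (edgeR adjusted p = 0.196), with a 95% interval from -0.21 to 0.04, and it was -0.16 (edgeR adjusted p = 0.00524) without the second iHEA library and -0.01 (edgeR adjusted p = 0.893) without the first. The difference between these 2 differences was 0.19 ± 0.08 and was not called (edgeR adjusted p = 0.274), although without the first iHEA library it was 0.27 (edgeR adjusted p = 0.00936) and without the second 0.11 (edgeR adjusted p = 0.387).

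Across the pairs, 3 of the 8 genes were higher and 4 lower in iHLOs than in 2D-iHs, beside 36.9% and 35.3% of all genes tested. The same numbers were called in iHEAs against 2D-iHEs, beside 36.0% and 34.9%. *Epop*, *Cisd3* and *Mllt6* were higher, and *Lasp1*, *Arhgap23* and *Mrpl45* lower, in both pairs. *Gpr179* was called in the first and *Copz2* in the second.

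*Epop* encodes a protein that binds the Polycomb repressive complex PRC2 and the elongin BC pair. Its counts were 89 and 84 in fibroblasts, 111 and 150 in adult liver and 157 and 159 in fetal liver, against 1485 and 1359 in 2D-iHs, 1490 and 804 in 2D-iHEs, 2218 and 2223 in iHLOs, and 2180 and 1595 in iHEAs. All cultures were above all other libraries, and the mean CPM was 20.5-fold that of fibroblasts, 51.9 ± 14.6 (SD, n = 8) against 2.54 ± 0.206 (SD, n = 2). Among the cultures *Epop* rose most of the 8 in 3D, from 33.4 to 42.7 CPM in 2D to 56.5 to 69.3 CPM in 3D. The log2 fold change was 0.77 ± 0.07 (SE; edgeR adjusted p = 1.69e-06), and it was 0.75 in iHLOs and 0.80 in iHEAs against their 2D counterparts.

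*Cisd3* encodes a mitochondrial iron-sulfur protein of the CDGSH family. Its counts were 250 and 201 in fibroblasts and 184 and 192 in fetal liver, but 1266 and 1326 in adult liver. In the cultures they were 1480 and 1306 (2D-iHs), 1459 and 798 (2D-iHEs), 1565 and 1688 (iHLOs), and 1549 and 1336 (iHEAs). The cultures were thus above fibroblasts and fetal liver, 6.62-fold and 7.47-fold in mean CPM. Against adult liver the log2 ratio was -0.95 with TMM factors and 0.38 by library size, so no direction is given. In 3D *Cisd3* was higher than in 2D by 0.38 ± 0.06 on the log2 scale (edgeR adjusted p = 0.000169), at 46.9 to 52.6 CPM against 33.1 to 41.2.

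*Lasp1* encodes a LIM and SH3 domain protein of the actin cytoskeleton. Counts were 6235 and 5380 in fibroblasts, 2598 and 2681 in adult liver and 3861 and 3706 in fetal liver, and 15324 and 14140 in 2D-iHs, 17217 and 10487 in 2D-iHEs, 12813 and 12388 in iHLOs, and 12587 and 10630 in iHEAs. The cultures were 2.42-fold above fibroblasts in mean CPM and varied little among themselves, with a coefficient of variation of 7.15%. In 3D the level was lower by -0.15 ± 0.04 on the log2 scale (edgeR adjusted p = 0.00232), at 377 to 392 CPM against 427 to 444. In iHLOs against 2D-iHs the log2 fold change was -0.12 ± 0.05 (edgeR adjusted p = 0.0319). That call was lost without the second 2D-iH library or without either iHLO library (log2 fold change -0.10, -0.13 and -0.11; edgeR adjusted p = 0.156, 0.0951 and 0.137). It was also lost without the filter on low counts (-0.10, edgeR adjusted p = 0.138).

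*Mllt6*, which encodes a PHD finger protein (AF17) that interacts with the histone methyltransferase DOT1L, had 3986 and 3511 counts in fibroblasts, 604 and 596 in adult liver and 700 and 819 in fetal liver. In the cultures counts were 2288 and 2190 (2D-iHs), 2804 and 1590 (2D-iHEs), 2434 and 2490 (iHLOs), and 2608 and 2135 (iHEAs). Every culture was below fibroblasts, 1.52-fold in mean CPM, and above both livers. In 3D the level was higher by 0.22 ± 0.04 on the log2 scale (edgeR adjusted p = 0.000871). In iHEAs against 2D-iHEs it was higher by 0.19 ± 0.06 (edgeR adjusted p = 0.00793), a call lost without the second 2D-iHE library (0.16, edgeR adjusted p = 0.0674) and with all 14 libraries fitted (0.15, edgeR adjusted p = 0.109).

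*Arhgap23* encodes a GTPase-activating protein and showed the largest difference between 3D and 2D of the 8 genes. Its counts were 5043 and 4514 in fibroblasts, 393 and 361 in adult liver and 3997 and 3164 in fetal liver. They were 1700 and 1513 in 2D-iHs, 2059 and 1155 in 2D-iHEs, 535 and 527 in iHLOs, and 549 and 356 in iHEAs. All cultures were below fibroblasts and fetal liver in CPM, by 4.34-fold and 3.41-fold in the mean, and those in 2D were above adult liver while those in 3D were below it with TMM factors. By library size all 8 cultures were above adult liver. The log2 fold change in 3D against 2D was -1.62 ± 0.08 (SE; edgeR adjusted p = 4.67e-09), 3.07-fold lower, and ranked 1842 by size among the 13409 genes tested. It was -1.49 in iHLOs and -1.75 in iHEAs against their 2D counterparts.

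*Copz2* encodes the second zeta subunit of the COPI coat, which shapes vesicles at the Golgi. Its counts were 4990 and 4130 in fibroblasts, 738 and 791 in adult liver and 386 and 478 in fetal liver, against 258 and 210 in 2D-iHs, 318 and 187 in 2D-iHEs, 179 and 188 in iHLOs, and 135 and 106 in iHEAs. Every culture was below every other library, and mean CPM was 21.8-fold below fibroblasts, 6.11 ± 1.63 (SD, n = 8) against 133 ± 1.54 (SD, n = 2). All 5 genes of the fibroblast marker list were measured, and their sum was lower in the cultures, as given above, with *Thy1* at 0 in 2D-iHEs, iHLOs and iHEAs and *Col1a2* at 0 in both 3D conditions, and its part in the levels of *Copz2*, *Arhgap23* and *Mllt6* was not tested. *Mir152* lies in an intron of *Copz2*, and 1 count in 1 of the 14 libraries was assigned to it. In 3D *Copz2* was lower than in 2D by -0.59 ± 0.14 on the log2 scale (edgeR adjusted p = 0.00268). In iHEAs against 2D-iHEs the difference was -0.99 ± 0.12 (edgeR adjusted p = 9.26e-06), and in iHLOs against 2D-iHs it was -0.24 ± 0.12 (edgeR adjusted p = 0.0788; 95% interval from -0.49 to 0.01).

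*Mrpl45*, the nearest annotated neighbour of *Gpr179*, encodes a protein of the large subunit of the mitochondrial ribosome. Counts were 1680 and 1345 in fibroblasts, 956 and 935 in adult liver and 1691 and 1546 in fetal liver, and 2293 and 2077 in 2D-iHs, 2468 and 1503 in 2D-iHEs, 1347 and 1443 in iHLOs, and 1553 and 1112 in iHEAs. The cultures overlapped fibroblasts and both livers in CPM, and the ratio to fibroblasts in mean CPM was 1.21-fold. Against adult liver the log2 ratio was -0.22 with TMM factors and 1.12 by library size. Those in 2D, at 62.4 to 65.3 CPM, were above both fibroblast libraries and those in 3D, at 39.4 to 47 CPM, lay on both sides of them. The log2 fold change in 3D against 2D was -0.53 ± 0.05 (SE; edgeR adjusted p = 2.3e-06).

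**Figure D2:**
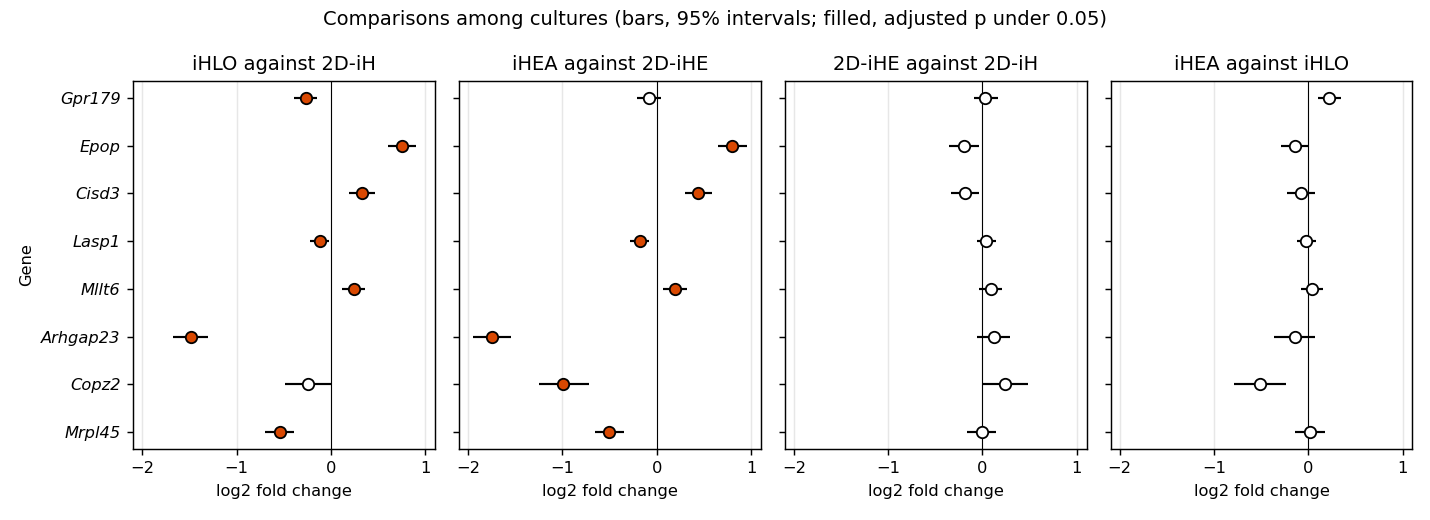
Log2 fold change of each gene in 4 comparisons among the cultures, from edgeR's quasi-likelihood fit; bars are 95% intervals and filled points have an adjusted p under 0.05. *Epop* lies at 0.75 and 0.80 and *Arhgap23* at -1.49 and -1.75 in the 2 comparisons of 3D with 2D at the left, and no point is filled in the 2 comparisons with against without induced endothelial cells at the right.

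The addition of human induced endothelial cells was examined at each dimension. With all 8 cultures fitted and the filter on low counts, edgeR called none of the 8 genes in iHEAs against iHLOs. Of all genes, 1.19% were higher and 1.07% lower. An unadjusted edgeR p under 0.05 was reached by 2 of the 8, beside 1702 of the 13409 genes tested. DESeq2 called 1, *Gpr179*. Without the filter edgeR called 2, *Gpr179* (0.21, edgeR adjusted p = 0.000798) and *Copz2* (-0.53, edgeR adjusted p = 0.0106). *Gpr179* was at 2386 and 2592 CPM in iHEAs against 2109 and 2212 in iHLOs, a log2 fold change of 0.22 ± 0.06 (SE; edgeR adjusted p = 0.0645; DESeq2 adjusted p = 0.00248). *Copz2* was at 4.08 and 3.75 CPM against 5.47 and 5.86, a log2 fold change of -0.51 ± 0.13 (SE; edgeR adjusted p = 0.0602). The libraries did not overlap for either gene. Without the first iHEA library 3 genes were called, *Gpr179* (0.30, edgeR adjusted p = 0.000304), *Epop* (-0.24, edgeR adjusted p = 0.0393) and *Arhgap23* (-0.34, edgeR adjusted p = 0.0399). Without the second iHEA library 0 were called, and the same genes stood at 0.14 (edgeR adjusted p = 0.107), -0.06 (edgeR adjusted p = 0.795) and 0.02 (edgeR adjusted p = 0.96), so that these values rested on which iHEA library was kept. The 2 iHEA libraries differed more from each other than the pair of any other culture condition, with a chi-square of their counts of 10.9 per gene against 3.3 to 3.49.

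In 2D none of the 8 was called with edgeR when all 8 cultures were fitted (4.26% of all genes higher and 3.92% lower). DESeq2 called 0. An unadjusted edgeR p under 0.05 was reached by 2 of the 8, beside 2964 of the 13409 genes tested. *Epop* was at 38.3 and 33.4 CPM in 2D-iHEs against 41.4 and 42.7 in 2D-iHs, a log2 fold change of -0.20 ± 0.07 (SE; edgeR adjusted p = 0.127). *Cisd3* was at 37.5 and 33.1 CPM against 41.2 and 41, a log2 fold change of -0.19 ± 0.07 (SE; edgeR adjusted p = 0.111). With only the 4 libraries of this comparison fitted, edgeR called both *Epop* (adjusted p = 0.036) and *Cisd3* (adjusted p = 0.0425). Both were also called without the second iHEA library (edgeR adjusted p = 0.0291 and 0.0497). For *Gpr179* the log2 difference was 0.03 ± 0.06, with a 95% interval from -0.09 to 0.16.

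The effect of co-culture in 3D minus that in 2D was called for *Copz2* and for none of the other 7, where 1.52% of all genes were higher and 1.62% lower. The values of *Copz2* were 7.19 and 6.6 CPM in 2D-iHs, 8.17 and 7.76 in 2D-iHEs, 5.47 and 5.86 in iHLOs, and 4.08 and 3.75 in iHEAs, so that co-cultured libraries were the higher ones in 2D and the lower ones in 3D. Summed fibroblast markers were at 3.82 and 4.05 CPM in 2D-iHs, 10.5 and 12.5 in 2D-iHEs, 3.93 and 10.1 in iHLOs, and 2.69 and 3.99 in iHEAs, so that they too were higher with co-culture in 2D, while in 3D the higher iHEA library stood just above the lower iHLO library. Their part in the values of *Copz2* was not tested. The difference of differences was -0.75 ± 0.17 on the log2 scale (edgeR adjusted p = 0.0339). It was not called by DESeq2 (-0.74; DESeq2 adjusted p = 0.106), nor with all 14 libraries fitted (-0.74, edgeR adjusted p = 0.0661), nor without any 1 of the 6 libraries of 2D-iHs, 2D-iHEs and iHLOs, where it lay between -0.80 and -0.68. Without the first iHEA library the value of *Arhgap23* was called (-0.46, edgeR adjusted p = 0.0125), and without the second it was -0.10 (edgeR adjusted p = 0.699).

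Within 500 kb of *Gpr179* on either side, the table held 39 other genes, of which 25 passed the filter on low counts over cultures and fibroblasts. Of these 25, 8 (32%) were above both fibroblast libraries in every culture and 13 (52%) were below, beside 40.4% and 29.9% of all genes. Their median log2 ratio of cultures to fibroblasts was -0.40, against 0.16 over all genes. No other gene in the window reached the ratio of *Gpr179*, which was selected for such a difference, so nothing is read from this. Outside the 8 described, the next on the side of *Mrpl45* were *Npepps*, which encodes an aminopeptidase, at 51.5 kb (log2 ratio -0.54), *Kpnb1*, which encodes importin beta, at 144 kb (-0.45) and *Tbkbp1*, which encodes a TBK1-binding protein, at 181 kb (-5.27). After them came *Mir7235* and the T cell factor gene *Tbx21*, with at most 2 counts in any culture. On the other side, *Socs7*, of the suppressor of cytokine signalling family, at 10.5 kb, had a log2 ratio of 0.63, and its mean was 57.3 CPM in the cultures and 36.1 in fibroblasts. It was followed by *4933428G20Rik*, *Srcin1*, *2410003L11Rik* and *Mir6927*, whose counts in any culture did not exceed 20. The gene with the highest ratio in the window after *Gpr179* was *Prr15l* at 394 kb (7.34), named after its values were seen, with 5 and 7 counts in fibroblasts and 375 to 3219 in the cultures. In 3D against 2D, 10 of 25 tested window genes were higher and 9 lower, beside 38.7% and 37.2% of all genes, and *Socs7* was among the higher ones (0.70 ± 0.04, edgeR adjusted p = 5.74e-08).

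**Figure D3:**
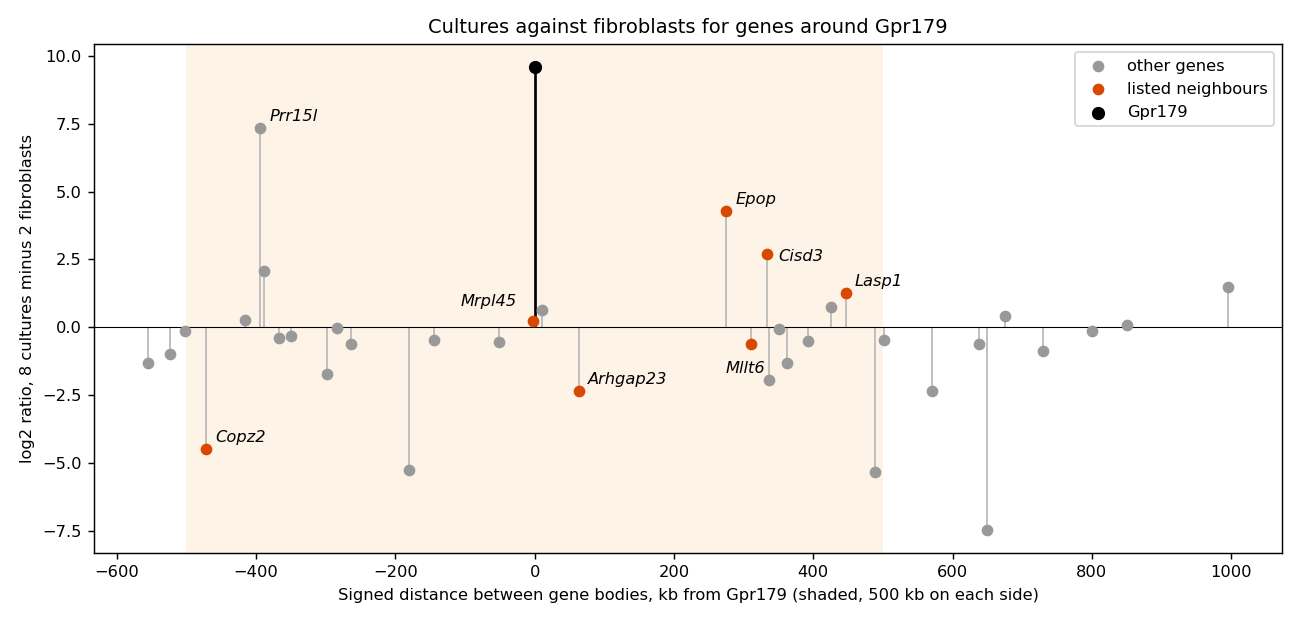
Log2 ratio of the 8 cultures to the 2 fibroblast libraries (vertical axis, log2 CPM with a prior count of 2) for genes that passed the filter within 1000 kb of *Gpr179*, against the signed distance between gene bodies in kb; the shaded span is 500 kb on each side. *Gpr179* stands at 9.58, the listed neighbours range from -4.48 (*Copz2*) to 4.27 (*Epop*), and *Mrpl45* and *Socs7*, the nearest on either side, stand at 0.25 and 0.63.

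The 5 genes with the highest Pearson correlation with *Gpr179* lay on other chromosomes. Pearson's r of log2 CPM across the 14 libraries was highest for *Pwwp2b* on chromosome 7 (0.999), *Zfp53* on 17 (0.996), *Bloc1s6* on 2 (0.996), *BC048403* on 10 (0.996) and *Eva1c* on 16 (0.995). The libraries form 2 separate sets, 8 cultures and 6 others, so r mainly records that split, and 331 of 14120 genes had r above 0.95. Spearman's rho for these 5 genes was 0.77 to 0.90. *Eva1c*, which encodes a heparin-binding membrane protein, had 1329 to 2373 counts in the cultures and 4 to 74 in the others. *Pwwp2b*, which encodes a PWWP domain protein, had 1748 to 3278 and 87 to 385. Among the listed neighbours, r was 0.981 for *Lasp1*, 0.907 for *Epop*, 0.58 for *Mllt6*, 0.502 for *Cisd3*, 0.0253 for *Mrpl45*, -0.523 for *Arhgap23* and -0.752 for *Copz2*. By Spearman's rho *Lasp1* (0.92) stood above those 5 genes, which were picked by Pearson's r. Of 14120 genes, 83 had a rho above 0.95 and so stood above *Lasp1*.

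The conversion factors are set side by side with *Gpr179* as the table counts them. *Pou5f1*, the gene of OCT4, had 11 to 27 counts in the cultures and 0 in every other library. *Hnf4a* had 4117 to 7670 counts in the cultures, 2 and 5 in fibroblasts, and up to 18806 in liver. Whether reads from the lentiviral copies were counted is not given in the sources used here.

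The partners of *Gpr179* in retinal ON bipolar cells and other genes of that cell type were at varied levels in the cultures. Of 18 such genes, 8 had at most 3 counts in every culture: *Grm6*, *Lrit3*, *Rgs7*, *Gnb3*, *Gng13*, *Cabp5*, *Vsx1* and *Otx2*. That is 44.4% of the list, beside 41.6% of all 28022 genes in the table, so the share at this level was close to that of genes in general. *Grm6*, *Lrit3*, *Cabp5* and *Otx2* were at 0 in all 8, which allows a level of up to 0.0771 to 0.124 CPM per library for counting error only. *Trpm1* had 20 to 32 counts in the 4 libraries grown in 2D and 0 to 4 in those grown in 3D. *Nyx*, which encodes nyctalopin, had 5 to 15. The more broadly expressed *Gnb5*, the partner of RGS proteins, had 602 to 1020 counts and *Prkca*, protein kinase C alpha, 2599 to 4218, against 387 and 393 and 3192 and 3867 in fibroblasts. *Isl1*, a LIM homeobox gene of several lineages, had 94 to 157 counts in the cultures and 67 and 81 in fetal liver. It was at 0 in fibroblasts and adult liver. Of the 6 genes tested in 3D against 2D, *Rgs11* (2.43 ± 0.43, edgeR adjusted p = 0.000295) and *Gnao1* (1.92 ± 0.35, edgeR adjusted p = 0.000362) were higher, from 1 to 9 and from 9 to 16 counts in 2D, none was lower, and the other 4 were not called. These counts are 33.3% and 0% of those tested, beside 38.7% and 37.2% of all genes. The median was 0.08, against 0.01 over all genes tested. *Gpr158*, the paralog of *Gpr179*, had at most 3 counts in any library.

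**Figure D4:**
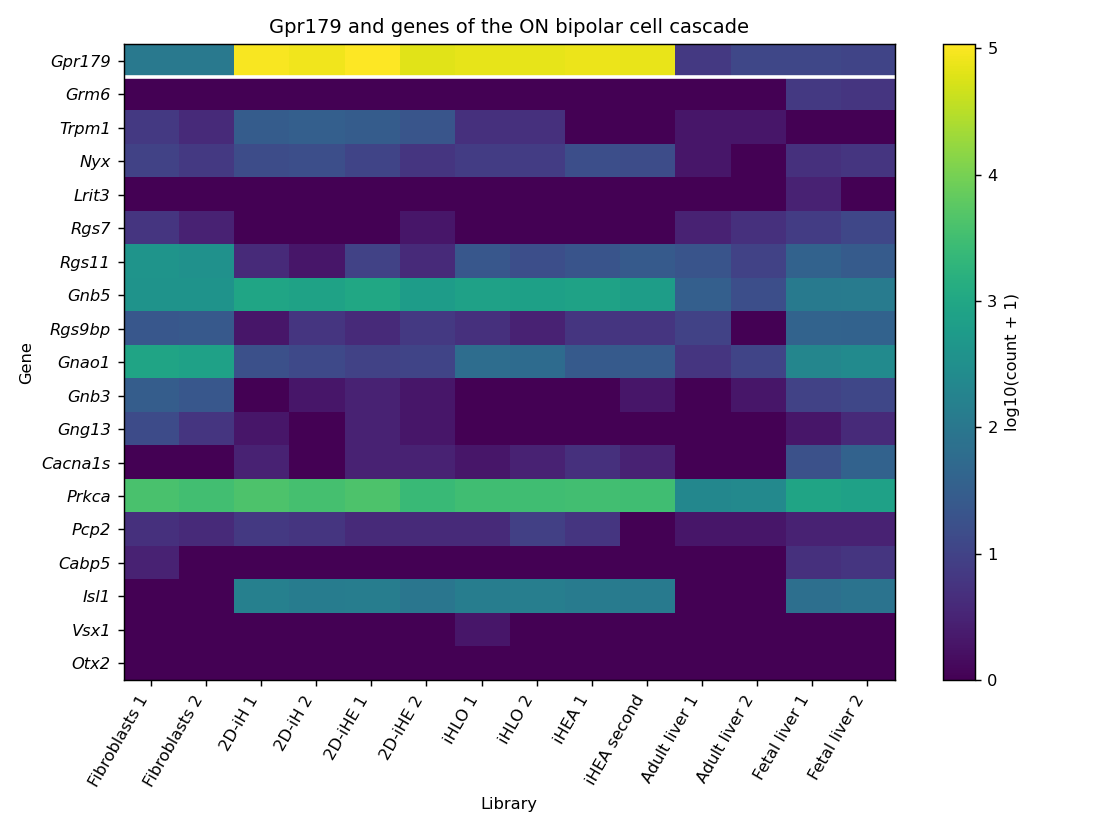
Counts of *Gpr179* (top row) and of 18 genes of the ON bipolar cell cascade in 14 libraries, as log10(count + 1) by colour. *Gpr179* is at 63023 counts or more in the cultures, whereas *Grm6*, *Lrit3*, *Cabp5* and *Otx2* are at 0 there.

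For *Epop*, the list of PRC2 subunits and partners held 16 measured genes, all tested. In 3D against 2D, 3 were higher, 11 lower and 2 not called, with a median log2 fold change of -0.37 against 0.01 over all genes tested. These counts are 18.8% and 68.8% of the list, beside the 38.7% and 37.2% of all genes. The methyltransferase genes went apart, *Ezh1* at 0.84 ± 0.04 (edgeR adjusted p = 2.81e-09) and *Ezh2* at -0.83 ± 0.06 (edgeR adjusted p = 2.3e-07). *Jarid2*, a PRC2 cofactor, was higher (1.50 ± 0.09) like *Epop*, and *Phf19*, a Polycomb-like protein gene, was the lowest of the list (-2.26 ± 0.13). The elongin genes *Elob* and *Eloc*, whose products EPOP binds, were lower, by -0.32 ± 0.06 and -0.42 ± 0.05.

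For *Copz2*, the COPI list of 10 genes, *Copz2* included, had 1 higher, 4 lower and 5 not called in 3D, with a median of -0.09. These counts are 10% and 40% of the list, beside 38.7% and 37.2% of all genes. The paralog *Copz1*, which encodes the other zeta subunit, was the higher one (0.17 ± 0.04, edgeR adjusted p = 0.00104). Per kilobase of exon, *Copz2* stood at 60.2 and *Copz1* at 30.7 CPM per kb in fibroblasts, and at 2.77 and 30 in the cultures. The order of the 2 zeta subunits was thus reversed from that in fibroblasts, with *Copz1* close to its fibroblast level. Both livers also had *Copz1* above *Copz2*, at 121 and 22.3 CPM per kb in adult liver and 61.9 and 6.08 in fetal liver. *Copb1* (-0.28 ± 0.04), *Copb2* (-0.19 ± 0.04) and *Copg2* (-0.39 ± 0.04) were the other lower genes.

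For *Mrpl45*, the 49 genes named *Mrpl* in the table included 48 that were tested, of which 9 were higher, 21 lower and 18 not called in 3D, with a median of -0.08. These counts are 18.8% and 43.8% of those tested, beside 38.7% and 37.2% of all genes. *Mrpl45* had the third largest decrease, after *Mrpl33* (-1.36) and *Mrpl13* (-0.72). Of the remaining paralogs, *Cisd1* (-0.22 ± 0.05), *Mllt10* (-0.19 ± 0.05) and *Arhgap21* (-0.28 ± 0.04) were lower in 3D, and *Cisd2* (0.10 ± 0.05; edgeR adjusted p = 0.0742) and the *Lasp1* relative *Nebl* (-0.38 ± 0.17; edgeR adjusted p = 0.0676) were not called. *Cisd1* was thus lower where *Cisd3* was higher, and *Mllt10* lower where *Mllt6* was higher.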

How the data were processed

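RNA was sequenced from 14 libraries. Per the labels, reads were processed with Trimmomatic 0.36, HISAT2, Cufflinks and HTSeq on mm10 (GRCm38), and the authors deposited whole-number read counts for 28022 genes, which were used as deposited. All 14 columns were used. The 8 genes and all lists were chosen with earlier results of these data known. Counts of the 8 cultures were fitted with edgeR 4.0.16 (TMM factors, quasi-likelihood test, Benjamini-Hochberg threshold 0.05, a minimum of 3 for the mean of log2(count + 1) per gene) in R 4.3.3, with 1 term per condition, or 1 for 3D. The test was tested on simulated data. CPM used TMM factors over 14 libraries, and levels per length used exon bases of GENCODE M21, which gave 98.6% of genes a position. Named besides the 8 genes were the 5 nearest to *Gpr179* on each side, the 5 most correlated with it, the conversion factors and genes of the lists; other genes are marked as chosen later. 1 gene of a list is not reported here. Total counts were 20851489 to 35143325, and the common coefficient of variation among culture libraries was 4.76%. Alternatives were DESeq2 1.42.0, other filters and scalings, the replicate block and each library left out. Intervals from counts cover counting error only.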

Additional observations from a re-analysis of the deposited data

Results flagged for a closer look

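In a search of 16 sets of 4 culture libraries (each of the 8 genes in 2D and in 3D) for a library far from the other 3, 2 sets were found, both of *Arhgap23*; chance alone gives about 1 in 20. In 2D the first 2D-iHE library stood at 52.9 CPM, with the others at 47.4 to 47.9, and in 3D the second iHEA library stood at 12.6 CPM, with the others at 16.4 to 16.6. Neither changed the direction of the difference between 3D and 2D. The effect of co-culture on *Copz2* differed between 3D and 2D by -0.75 on the log2 scale in a test of that difference (edgeR adjusted p = 0.0339). It was positive in 2D (0.24 ± 0.11) and negative in 3D (-0.51 ± 0.13), and neither effect was called alone with the filter on low counts. The difference was not called by DESeq2 (DESeq2 adjusted p = 0.106) or with all 14 libraries fitted (edgeR adjusted p = 0.0661). Further losses with libraries left out are given above.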

How the results depend on the processing

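For the 8 genes in the 6 comparisons, 600 alternative values were computed. Of these, 554 kept direction and call, 18 kept direction and lost the call, 16 kept direction and gained a call, and 12 changed sign. The 12 were all uncalled in both fits, and under the alternative their log2 fold changes were at most 0.09 in size with edgeR adjusted p-values of at least 0.566. 11 of them came with 1 library left out. In iHEAs against iHLOs these were *Arhgap23* (-0.34 to 0.02) and *Mrpl45* (-0.09 to 0.13), in 2D-iHEs against 2D-iHs *Mrpl45* (-0.03 to 0.01), and in the difference of co-culture effects *Epop* (-0.05 to 0.14), *Mllt6* (-0.10 to 0.02) and *Mrpl45* (-0.08 to 0.14). The other was *Arhgap23* in iHEAs against iHLOs with the replicate block (0.01). The same 7 libraries without the block (0.02) are the fit without the second iHEA library and were counted once. With all 14 libraries fitted, the call of *Mllt6* in iHEAs against 2D-iHEs was lost (0.15, edgeR adjusted p = 0.109). Without the filter on low counts, 881 genes and 2 of the 8 (*Gpr179*, *Copz2*) were called in iHEAs against iHLOs, and 901 genes in the difference of co-culture effects. With DESeq2's Wald test, 1 of the 8 was called in iHEAs against iHLOs and 0 in the difference of co-culture effects, which was also 0 with all 14 libraries fitted. With the 4 libraries of a comparison alone, 90 genes were called in iHEAs against iHLOs and 2052 in 2D-iHEs against 2D-iHs, with 2 of the 8 (*Epop*, *Cisd3*). The replicate numbers did not pair the libraries (correlations of deviations -0.045, -0.0318 and 0.00716). With the replicate block on the 7 numbered libraries, 624 genes were called in iHEAs against iHLOs, 1953 in 2D-iHEs against 2D-iHs with 2 of the 8, and 786 in the difference of co-culture effects; the same 7 without the block gave 647, 2003, 2 and 801. With all 8 cultures fitted, 303 genes were called in iHEAs against iHLOs, 1096 in 2D-iHEs against 2D-iHs and 421 in the difference of co-culture effects. Leaving out each library of a comparison in turn gave 90 to 739 genes and 0 to 3 of the 8 in the first, 257 to 429 genes in the second and 129 to 963 genes and 0 to 3 of the 8 in the third, so that in the second each fit without 1 of its own 4 libraries called fewer. The highest counts in both came without the first iHEA library (739 and 963). The cause of these shifts was not tested. By Spearman's rho 83 genes, and not 331, were above 0.95 with *Gpr179*. With DESeq2 size factors the log2 ratio to fibroblasts moved beyond the spread for *Lasp1* (1.15) and *Mllt6* (-0.72), and the median of all genes moved from 0.16 to 0.04. Depth limits the ratios of *Gpr179* to liver, where its counts were 6 to 11 per library.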
